A study of Mus musculus with 150 samples.

Results

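Top2a encodes topoisomerase II alpha, the enzyme that untangles replicated chromosomes before they separate, and its transcript is made mainly in cells that are in S phase, G2 phase or mitosis. The 12 libraries described here are the livers with the most Top2a transcript among mice of 460 days or older, and they were compared with the 30 livers of the same age range that had the least. The study sequenced polyA-selected RNA from pulverised liver of BXD mice, a family of recombinant inbred strains bred from C57BL/6J and DBA/2J, and of their parents and F1 crosses, fed chow (CD) or high-fat food (HF). The deposited tables have 150 library columns. After 7 columns that repeat another column and 4 columns with a Ddx3y row above 5 FPKM were dropped (1 column falls under both), 140 libraries remained, all labelled female. Each repeat carries another strain label than the column it equals. The mice were perfused with cold saline before the liver was taken, and the gall bladder was removed. Of the 140, 68 came from mice of 460 to 764 days and were ranked by Top2a: 12 high, 26 between and 30 low. The other 72 came from mice of 157 to 386 days and were not used by the ranking. Values are FPKM, fragments counted per transcript and scaled for its length and for the depth of the library.

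Adult hepatocytes are long-lived and rarely divide, but the liver regrows after injury because hepatocytes can re-enter the cell cycle. Other dividing cells can be present in a liver too, among them Kupffer cells (the resident macrophages), bile duct cells, infiltrating lymphocytes and blood-forming precursors. Entry into S phase is driven by E2F factors that switch on the replication genes. The genes of G2 phase and mitosis are switched on later, through CCAAT boxes bound by NF-Y and through a short element called the cell cycle genes homology region (CHR) bound by the DREAM and B-MYB complexes and by FOXM1 with them. RNA from liver tissue does not say which cell a transcript came from, and fewer cells of a type and less RNA per cell cannot be told apart in any value given here.

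The promoters below belong to Top2a, which formed the sets, and to Cdk1, Cdc20 and Ccnb2, mitotic genes whose transcripts separated the high from the low libraries. Each is the 250 bases before the annotated start of the gene (RefSeq, GRCm38.p6), written 5′ to 3′ on the strand of the gene. All 4 genes lie on the minus strand: Top2a at chr11:99024190-99024439, Cdk1 at chr10:69352913-69353162, Cdc20 at chr4:118437344-118437593 and Ccnb2 at chr9:70421555-70421804. Capitals mark CCAAT on either strand (CCAAT or ATTGG) and the CHR letters TTTGAA or TTCGAA on either strand (TTCAAA for the first, while the second reads the same on both strands).
Top2a: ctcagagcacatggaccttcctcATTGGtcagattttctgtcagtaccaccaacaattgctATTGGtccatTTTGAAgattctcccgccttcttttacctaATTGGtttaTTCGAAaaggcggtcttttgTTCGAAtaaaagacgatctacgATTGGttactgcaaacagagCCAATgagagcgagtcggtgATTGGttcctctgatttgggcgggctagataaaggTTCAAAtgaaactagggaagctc
Cdk1: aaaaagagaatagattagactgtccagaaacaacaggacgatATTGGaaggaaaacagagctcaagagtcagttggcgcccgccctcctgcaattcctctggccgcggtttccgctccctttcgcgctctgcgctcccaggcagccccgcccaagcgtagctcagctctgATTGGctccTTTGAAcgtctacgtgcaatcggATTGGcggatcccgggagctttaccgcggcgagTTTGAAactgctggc
Cdc20: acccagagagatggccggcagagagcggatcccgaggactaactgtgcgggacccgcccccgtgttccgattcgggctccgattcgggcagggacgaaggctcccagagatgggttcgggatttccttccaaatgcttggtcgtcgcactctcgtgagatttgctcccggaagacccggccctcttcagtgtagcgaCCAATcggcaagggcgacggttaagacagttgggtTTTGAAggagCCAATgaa
Ccnb2: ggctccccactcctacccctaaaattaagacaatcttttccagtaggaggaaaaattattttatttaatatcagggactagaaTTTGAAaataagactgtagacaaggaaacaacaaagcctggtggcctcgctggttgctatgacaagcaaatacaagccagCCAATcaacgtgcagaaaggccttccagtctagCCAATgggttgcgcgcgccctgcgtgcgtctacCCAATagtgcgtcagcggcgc

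All 4 promoters hold both kinds of letters, with 6 CCAAT and 4 CHR matches in Top2a and 2 CCAAT and 1 CHR match in Cdc20. Some other mitotic genes that separated the sets do not hold both, while Mki67 does, with 3 CCAAT and 2 CHR matches. Ccnb1 had 2 CCAAT and no CHR match, Racgap1 had 1 CCAAT and no CHR match, and Birc5 had neither. A promoter sequence was found for 27 of the 34 genes of the G2 and mitosis list. CCAAT was present in 20 of these 27 (74.1%), CHR letters in 10 (37%) and both in 9 (33.3%). Among the 9467 tested genes with a promoter sequence the shares were 36.2%, 12.2% and 4.75%. For the S phase list, 14 of 25 promoters held CCAAT (56%) and 3 held CHR letters (12%). A match says that the letters occur in this window and nothing about binding.

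Among the 12 high libraries, Top2a (chromosome 11, 98992943 to 99024189, a transcript of 5221 bases) stood at 23.6 FPKM in the BXD95 liver (HF, 550 days), 19.4 in BXD9 (CD, 548 days) and 8.7 in the older of the BXD101 livers (CD, 756 days). BXD60 (CD, 530 days) had 3.5, BXD62 (HF, 548 days) had 2.35 and the other BXD101 liver (HF, 493 days) had 2.34. The last 6 were B6D2F1 at 640 days (CD, 2.25), BXD89 (HF, 539 days, 2.19), BXD68 on HF (545 days, 2.15), BXD102 (CD, 501 days, 1.89), BXD68 on CD (545 days, 1.88) and B6D2F1 at 552 days (CD, 1.88). So 3 livers stood apart above 5 FPKM and the other 9 lay close together. The 12 come from 9 strains: B6D2F1, the F1 of the parents, and BXD101 and BXD68 gave 2 each. The 30 low libraries ranged from 0.0115 to 0.32 FPKM with a median of 0.173 and came from 21 strains, of which B6D2F1 and BXD62 are shared with the high set. The values of the low BXD62 library also stood in a dropped column labelled BXD79, so its strain is uncertain. The Top2a values chose the sets and carry no test. At the upper limit, the library next in rank, from BXD65b, had 1.54 FPKM. At the lower limit the highest low library had 0.320 and the next one up 0.326, so no gap separates the 30 from the 26 between, whose median was 0.482. The younger livers ranged from 0.0798 to 2.62 FPKM with a median of 0.245.

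**Figure D1:**
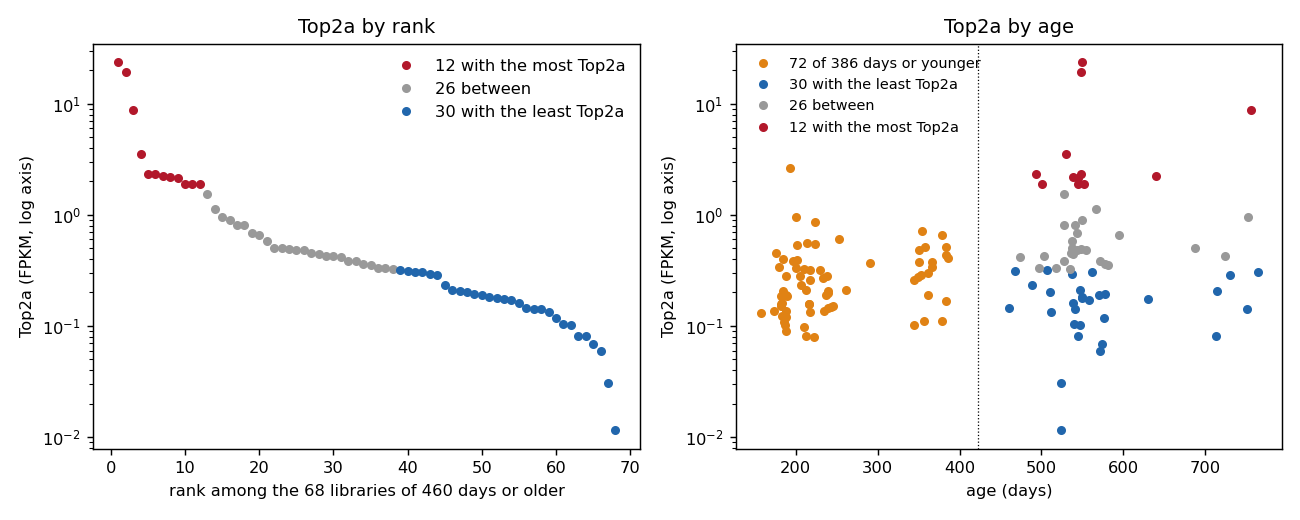
Top2a in FPKM on a log axis, by rank among the 68 libraries of 460 days or older (left) and by age in days for all 140 (right, dotted line between the age sets); each point is 1 library. The 3 livers above 5 FPKM stand clear at the top left, and the low and between sets run into each other at 0.320 and 0.326 FPKM.

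Age, diet, input reads and mapped share showed no detectable difference between the high and low livers. Mean age was 562 days ± 70.7 (SD, n = 12) in the high and 573 days ± 81.3 (SD, n = 30) in the low set (difference -10.5 days, 2-sided permutation test, 100000 resamples, p = 0.700). Chow was the diet of 7 of 12 high mice (58.3%) and 16 of 30 low mice (53.3%), with p = 1 in a 2-sided Fisher's exact test. Input reads ranged from 20358877 to 26490806 in the high and from 18330270 to 29532657 in the low libraries, and the uniquely mapped share from 83.1% to 90.1% and from 80.1% to 90.7% (permutation p = 0.271 and p = 0.953). After Benjamini-Hochberg adjustment over these 4 measures each p was 1.

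Some libraries stood close together. In 9 pairs of libraries of the same strain the genes deviated together with correlations of 0.823 to 0.969, against at most 0.730 in the other same-strain pairs (median 0.234; 204 same-strain pairs in all). Among these pairs are the 2 high B6D2F1 livers (0.969), labelled 640 and 552 days. Their median squared difference over genes was 2.83 times that of counting error alone. In the other same-strain pairs this ratio, a ratio of variances, had a median of 15.2. These 2 are treated as separate below, as labelled, and the counts with each close pair as 1 library are given beside the main ones. Of the 12 high libraries, 4 share the leading number of their case identifier in the labels, read here as a collection session, and none of the 30 low ones has it. Of the flow cells named in the files, 1 held 7 high and 6 low libraries, another held 3 and 12 and a further one 2 and 6, and the 6 other low libraries were on 3 flow cells without a high one. By the labels kept, only B6D2F1 and BXD62 of the high strains have a low library. For the other high strains, strain and high Top2a cannot be told apart. The part of strain, session and flow cell in the results was not tested beyond the refits given below.

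As a check of the tissue, Alb (serum albumin, the main hepatocyte product) stood at 14904 to 37977 FPKM (median 27902) in the high and 20588 to 55348 FPKM (median 30746) in the low livers (log2 difference -0.16, SE 0.12, limma adjusted p = 0.27). The ranges overlapped, and 3 high livers lay below all 30. The difference passed the test after rescaling each library by a median of ratios (log2 difference -0.34, limma adjusted p = 0.0383).

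The other cell cycle genes were higher in the high livers almost throughout. Since the sets were formed on a cell cycle transcript, the 12 against 30 values of these genes are a description with no test. Of the 34 genes of the G2 and mitosis list, all had a higher median in the 12 than in the 30, and in 29 every high library lay above all 30. A mean of 0.5 FPKM over the 140 libraries, the minimum for the tests, was reached by 16 of them. Genes with low background levels pass it partly through the high libraries. Of the 29 genes of the S phase list, 27 had a higher median in the 12.

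Among the regulators of entry into mitosis, Cdk1 (the mitotic kinase, chromosome 10, 69338324 to 69352903) stood at 1.88 to 19 FPKM (median 4.89) in the high and 0.0424 to 1.33 FPKM (median 0.327) in the low livers. Ccnb1, the cyclin B1 that activates it, had 1.47 to 21.5 FPKM (median 2.89) and 0 to 0.665 FPKM (median 0.134). Foxm1, the transcription factor of this program, was under the expression minimum and had 0.399 to 4.82 FPKM (median 0.863) against 0 to 0.295 (median 0.108). For all 3 genes every high liver lay above every low liver. Cdc20, which activates the anaphase-promoting complex, showed the same separation, with 3.55 to 27.3 FPKM (median 5.1) and 0.0935 to 1.56 FPKM (median 0.392). Mki67 (the proliferation antigen Ki-67) had 0.616 to 17.7 FPKM (median 1.96) and 0.0375 to 0.512 FPKM (median 0.127) and did not overlap either. Ube2c, a ubiquitin-conjugating enzyme of the same complex, is the exception in this group: its 1.47 to 11.4 FPKM (median 4.83) overlapped with 0.0819 to 12.1 FPKM (median 1.08), and none of the 12 lay above all 30.

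The replication genes were higher less evenly. Mcm6, a subunit of the replicative helicase, had 1.24 to 30.3 FPKM (median 5.23) in the high and 0.105 to 1.87 FPKM (median 0.702) in the low livers, with 11 of the 12 above all 30. Pcna, the sliding clamp of the polymerases, had 18 to 70.3 FPKM (median 22.7) and 11.8 to 22.1 FPKM (median 15.3), and only 7 of the 12 were above all 30. Tk1 (thymidine kinase 1) did not separate the sets, with 9.35 to 46.8 FPKM (median 18.7) against 9.03 to 46.9 FPKM (median 22). Mcm10, a replication initiation factor, was lower, with 2.45 to 11 FPKM (median 4.14) against 3.72 to 19.2 (median 10.6).

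The 3 livers with the most Top2a also had the most of most cell cycle transcripts. Cdk1 was 18.6, 18.5 and 19 FPKM in BXD95, BXD9 and the chow-fed BXD101, and at most 7.33 in the other 9. Summed over the G2 and mitosis list, the 3 had 308, 340.5 and 207 FPKM, the other 9 38.1 to 83.1 and the 30 low livers 7.08 to 25.3. The order was not the same for all markers. The B6D2F1 pair had Mki67 at only 0.616 and 0.707 FPKM, the lowest of the 12, but Tk1 at 46.8 and 43.9, the highest, and an S phase sum of 249 and 236 FPKM that only the top 3 exceeded. BXD68 on CD differed in another way: its Ube2c of 11.4 FPKM was the highest of the 12 and its S phase sum of 88.6 the lowest.

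**Figure D2:**
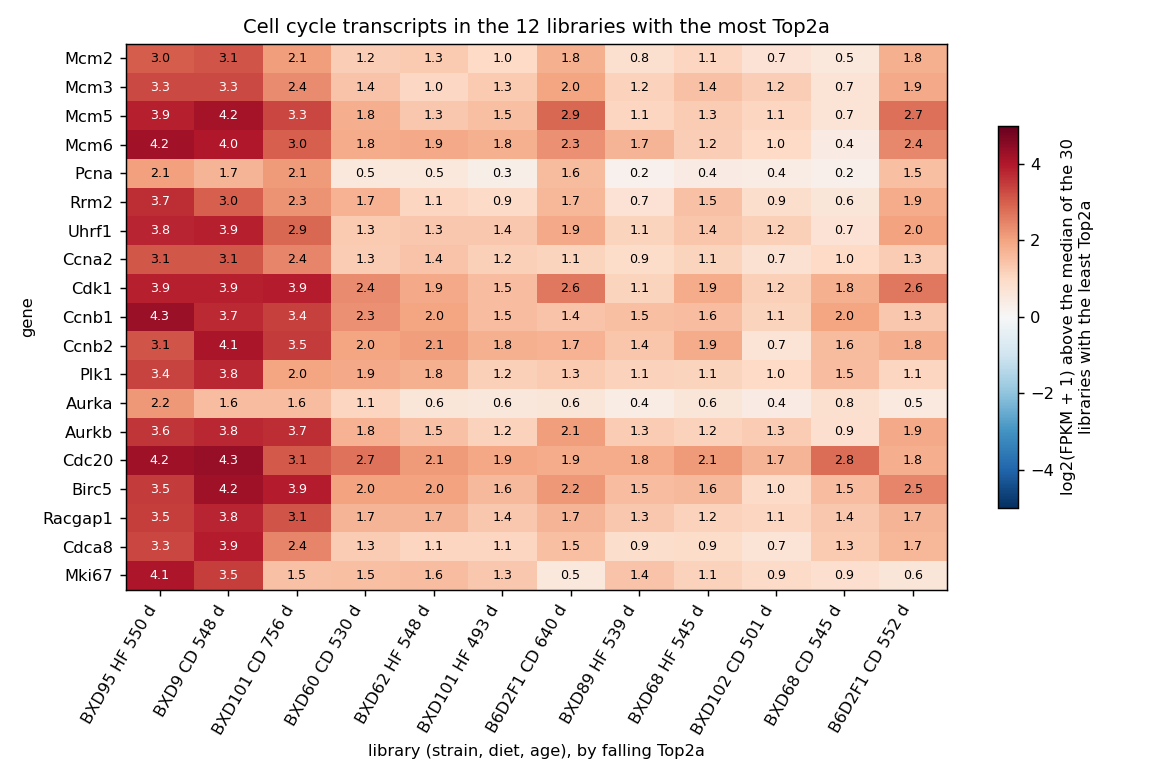
Cell cycle transcripts (rows) in the 12 libraries with the most Top2a (columns, by falling Top2a), as log2(FPKM + 1) above the median of the 30 libraries with the least. The 3 leftmost columns, BXD95, BXD9 and BXD101 on CD, are the darkest in most rows, and the B6D2F1 columns are pale for Mki67 with 0.616 and 0.707 FPKM.

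Across the 68 older livers the genes whose levels ranked most like Top2a were Racgap1 (Spearman's rho 0.912), Plk1 (0.901), Incenp (0.894), Uhrf1 (0.891), Aurkb (0.886) and Cdca8 (0.885), of which only Incenp is outside the lists. All 6 act in replication-coupled methylation, mitotic entry or cytokinesis, Incenp, Aurkb and Cdca8 being 3 subunits of the chromosomal passenger complex. The next 6 were Parvg (0.872), Aldh18a1 (0.860), Arhgdib (0.859), Pkm (0.859), Hmgb2 (0.855) and Emb (0.854). Parvg and Arhgdib are genes of blood cells, Pkm encodes the pyruvate kinase of growing and non-hepatocyte cells, and Aldh18a1 starts proline synthesis. The correlations are over libraries that share strains and the close pairs named above, and they are given as a description.

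The 12 livers differed from the 30 in a large part of the transcriptome. The counts here cover all genes tested, with the cell cycle lists and Top2a among them (4844 higher without Top2a). On log2(FPKM + 1) with diet as a covariate, limma called 4845 of 13414 genes higher (36.1%) and 2106 lower (15.7%) at an adjusted p under 0.05, 51.8% in all. The median log2 difference of all genes tested was 0.11. After rescaling by a median of ratios it was -0.02 and the split turned to 3412 higher and 3555 lower. So the share of calls that are rises depends on the scaling, and a list near 36.1% higher or 15.7% lower is not set apart. Without the 3 livers above 5 FPKM, 3916 genes were called higher and 1410 lower, with each close pair as 1 library 4618 and 1925, without that session 4323 and 2020, and with flow cell as a covariate 4493 and 1679. With strain as a random effect the counts were 4807 and 2015. Of the genes tested, 234 reached the expression minimum only through the high libraries. The tests below compare sets formed by a transcript of the same libraries, so each p describes a difference between these sets and not an independent trial.

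A complete separation of the sets was rare. In 67 genes (0.499%) every high liver lay above all 30 low livers. Apart from Top2a, 14 of these are in the cell cycle lists and 52 are not. The reverse held for 2 genes (0.0149%), Abcb6 and Abhd3, named here after their values were seen. Abcb6, a porphyrin transporter, had 9.54 to 24.7 FPKM (median 20.6) in the high and 26.9 to 44.6 (median 34) in the low livers. Abhd3, a phospholipase, had 7.85 to 23.5 (median 16.1) and 23.7 to 44.9 (median 30.1).

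Macrophage transcripts were higher in nearly all of the 12. Of 20 Kupffer cell and macrophage genes tested, 18 rose and none fell, with a median log2 difference of 1.86. Their summed level was 509 to 10806 FPKM in the high livers (median 1603) and 182 to 989 in the low (median 434), and 11 of 12 sums lay above all 30. Mpeg1, a pore-forming protein of macrophages, had 31.2 to 142 FPKM (median 95.1) against 10.1 to 41.6 FPKM (median 21.2) (log2 difference 2.06, SE 0.17, limma adjusted p = 4.58e-12). Marco, a scavenger receptor of Kupffer cells, had 5.95 to 187 FPKM (median 77.4) against 0.535 to 25.6 FPKM (median 4.75) (log2 difference 3.35, SE 0.39, limma adjusted p = 3.28e-09). BXD68 on CD was the exception, with Mpeg1 at 31.2 and Marco at 5.95 FPKM, inside the low range, where Marco of BXD62 (10.9 FPKM) also lay. At the other end the B6D2F1 pair had macrophage sums of 10806 and 10755 FPKM. Their Trem2, a lipid-sensing receptor of macrophages in damaged liver, was 121 and 123 FPKM, where the low livers had 0.254 to 5.06 FPKM (median 1.1) and the other high livers at most 26.5.

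Granulocyte transcripts followed, led by 1 liver. Of 10 granulocyte precursor genes tested 9 rose, and of 7 genes of mature neutrophils 7 rose, with no falls in either list (median log2 differences 1.72 and 1.49). In BXD9 the granule protein genes Mpo and Elane stood at 549 and 157 FPKM and the calprotectin gene S100a8 at 2421. In the other 11 high livers Mpo was at most 6.68 and S100a8 at most 75.6, and in the 30 low livers they were at most 1.51 and 15.9. Cd34, a marker of blood progenitors and of endothelium, was also highest in BXD9, at 21.5 FPKM against at most 5.31 in the rest of the 12. S100a8 lay above all 30 low livers in 9 of the 12 (log2 difference 3.03, SE 0.48, limma adjusted p = 1.31e-06), and without the 3 livers above 5 FPKM the log2 difference was 2.36 (limma adjusted p = 9.69e-06). Csf3r, the G-CSF receptor of neutrophils, is one of the 67 genes with complete separation, with 1.56 to 35.8 FPKM (median 2.78) against 0.236 to 1.49 FPKM (median 0.841).

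Lymphocyte transcripts were highest in other livers than the granulocyte ones. Of 7 B cell genes tested all 7 rose (median log2 difference 1.31), of 4 plasma cell genes 3 and of 10 T and NK cell genes 9, while Tox fell. The expression minimum counts the high libraries too, so genes can pass it partly through them. Among listed genes under it, 3 of 7 B cell genes had a higher median in the 12. The same held for 3 of 3 plasma cell genes and 9 of 9 T and NK cell genes under it. Cd79a, part of the B cell receptor, reached 84.6 FPKM in BXD101 on CD and 37.1 in BXD95, with 1.51 to 14 in the other 10 and 0.395 to 6.51 FPKM (median 1.62) in the low livers. The plasma cell genes split these 2 livers. Mzb1, a chaperone of antibody-secreting cells, was 182 FPKM in BXD95 and 132 in BXD101 on CD, whereas Jchain, the joining chain of secreted IgM and IgA, was 323 in BXD95 and 6.08 in BXD101 on CD. BXD101 on CD also had the highest summed T and NK level, 638 FPKM, with Ccl5 at 366 and the cytotoxic granule gene Gzmb at 22.6. The other 11 had T and NK sums of 17.7 to 139 FPKM and the low livers 7.02 to 26.4. Cd3e, the T cell receptor chain CD3 epsilon, had 0.849 to 11.6 FPKM (median 2.49) against 0.205 to 2.45 FPKM (median 0.734) (log2 difference 1.22, SE 0.19, limma adjusted p = 1.1e-06), and 7 of 12 lay above all 30. In 6 of the 12 the B cell sum lay within the low range of 2.29 to 20.1 FPKM, and it was lowest in the B6D2F1 pair and BXD68 on CD, at 5.63, 6.42 and 5.63 FPKM.

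Of the other blood lineages, erythroid genes were higher in part of the livers. Hbb-bs (beta globin) had 81.1 to 2658 FPKM (median 408) against 24 to 473 FPKM (median 116) (log2 difference 2.26, SE 0.46, limma adjusted p = 7.2e-05), with 5 of 12 above all 30: BXD101 on CD, both B6D2F1 livers, BXD62 and BXD101 on HF. Alas2, the first enzyme of erythroid haem synthesis, had 2.15 to 21.7 FPKM (median 9.14) against 2.41 to 11.2 FPKM (median 5.46) (log2 difference 0.57, SE 0.20, limma adjusted p = 0.0175), a call that was lost with the close pairs as 1 library (limma adjusted p = 0.0869) and after rescaling (limma adjusted p = 0.0906). Klf1, an erythroid transcription factor, fell (log2 difference -0.68, SE 0.13, limma adjusted p = 4.56e-05). Only 6 of the 18 listed erythroid genes reached the expression minimum, of which 5 rose. Of 5 megakaryocyte and progenitor genes tested all rose (median log2 difference 1.01), Itga2b by 0.44 on the log2 scale (SE 0.08, limma adjusted p = 3.6e-05). Another 5 genes of that list were under the expression minimum, and 4 of these had a higher median in the 12. Of 3 dendritic cell genes tested 2 rose, Batf3 and Clec9a, by 1.57 and 0.47 on the log2 scale (limma adjusted p = 2.17e-07 and 0.000474). The other 6 listed were under the expression minimum, and all 6 had a higher median in the 12.

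**Figure D3:**
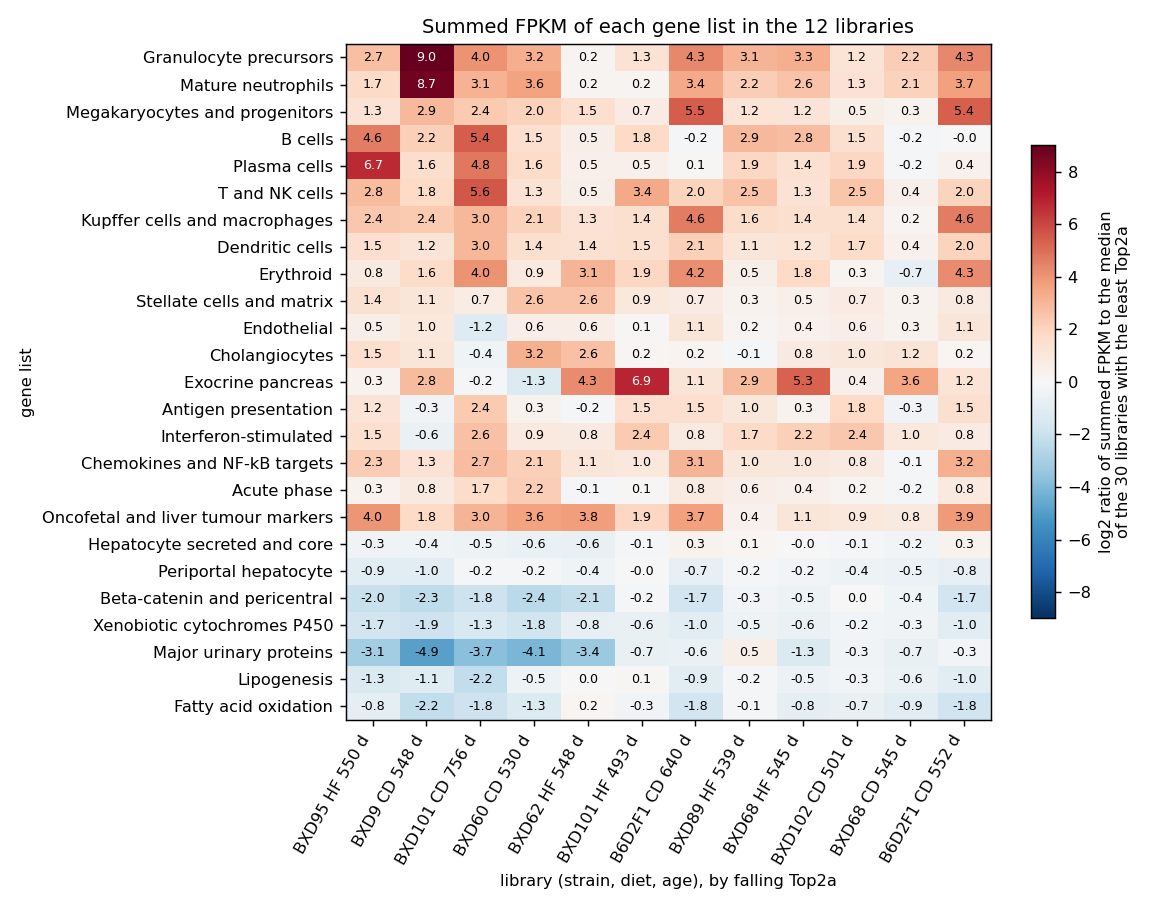
Summed FPKM of each gene list (rows) in the 12 libraries with the most Top2a (columns, by falling Top2a), as the log2 ratio to the median of the 30 libraries with the least. Granulocyte lists peak in BXD9, plasma cells in BXD95, T and NK cells in BXD101 on CD and macrophages in the B6D2F1 pair, and the rows of hepatocyte functions are mostly below 0.

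Genes of antigen presentation and of interferon and chemokine responses rose with the leukocyte genes. In the interferon-stimulated list 27 of 29 rose (median log2 difference 0.95), in the antigen presentation list 15 of 16 (1.26) and in the chemokine and NF-kB list 17 of 17 (1.33), with no falls. Oasl2, an interferon-induced antiviral gene, had 4.83 to 25.2 FPKM (median 6.47) against 0.494 to 3.4 FPKM (median 1.3) (log2 difference 1.91, SE 0.16, limma adjusted p = 4.58e-12), a complete separation. Cd74, the invariant chain of MHC class II, had 97.9 to 3040.1 FPKM (median 715) against 41.7 to 206 FPKM (median 84.8) (log2 difference 2.98, SE 0.34, limma adjusted p = 2.2e-09). It was highest in the B6D2F1 pair (3040.1 and 2962 FPKM), BXD101 on CD (2572) and BXD102 (2065), and in BXD68 on CD it was 97.9. BXD9, the liver with the granulocyte transcripts, had the lowest interferon sum of the 12, 139.7 FPKM, inside the low range of 122 to 339. Ptprc, the pan-leukocyte antigen CD45, had 3.2 to 35.9 FPKM (median 11.2) in the 12, with only BXD68 on CD at the lower end inside the low range of 0.643 to 5.79 (median 2.07). The part of leukocyte numbers in the differences of these lists was not tested.

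**Figure D4:**
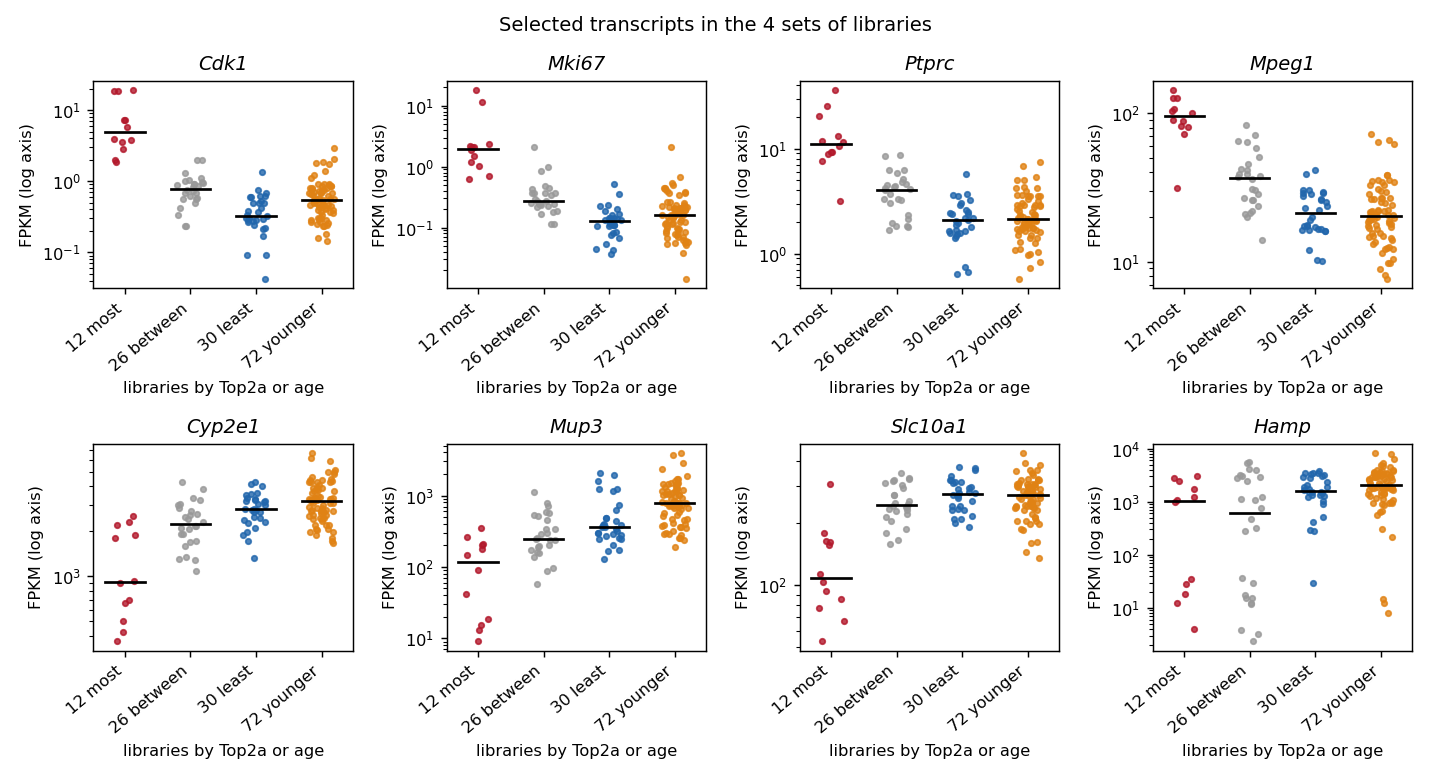
FPKM on a log axis of 8 transcripts in the 12 high, 26 between, 30 low and 72 younger libraries; points are libraries and black lines medians. Cdk1, Mki67 and Mpeg1 fall from the 12 to the 30, Cyp2e1, Mup3 and Slc10a1 run the other way, and Hamp splits into a group under 50 FPKM and a group far above it in each set.

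Transcripts of hepatocyte functions were mostly lower. In the list of secreted and core hepatocyte genes 16 of 19 fell and none rose (median log2 difference -0.62). Their summed level overlapped, with 36959 to 71718 FPKM (median 50823) in the high and 43356 to 81762 (median 57975) in the low livers. Only 3 of the 12 sums lay below all 30, and those of BXD89 and the B6D2F1 pair were above the median of the 30. Slc10a1, the bile acid uptake transporter NTCP, had 53.5 to 309 FPKM (median 108) in the high and 192 to 374 FPKM (median 275) in the low livers (log2 difference -1.21, SE 0.15, limma adjusted p = 6.94e-09), and 11 of 12 lay below all 30, BXD89 being the exception. Serpinc1 (antithrombin) had 482 to 1288 FPKM (median 885) against 1170.2 to 1527 FPKM (median 1338) (log2 difference -0.62, SE 0.09, limma adjusted p = 1.03e-07), with 10 of 12 below all 30. Ttr (transthyretin) fell too (log2 difference -0.83, SE 0.19, limma adjusted p = 0.000421).

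Both ends of the liver lobule were represented among the falls. Of 14 beta-catenin and pericentral genes 10 fell, and Slc1a4, an amino acid transporter, rose (median log2 difference -0.72). Without the 3 livers above 5 FPKM of Top2a 6 fell. Of 12 periportal genes 7 fell and 1 rose (-0.56). Cyp2e1, the ethanol-oxidising cytochrome of pericentral hepatocytes, had 367 to 2539 FPKM (median 915) against 1329 to 4305 FPKM (median 2834) (log2 difference -1.43, SE 0.21, limma adjusted p = 2.81e-07). Here the 12 divided. The 7 livers of BXD60, BXD62, BXD9, BXD95, BXD101 on CD and B6D2F1 had 367 to 935 FPKM, below all 30, and the other 5 had 1815 to 2539, inside the low range. Glul (glutamine synthetase, the innermost pericentral marker) divided them in the same way, with 112 to 226 FPKM in the 7 and 333 to 672 in the 5, against 239 to 669 FPKM (median 385) in the low livers. Axin2, a direct beta-catenin target, had 0.197 to 5.00 FPKM (median 1.83) against 1.25 to 4.00 FPKM (median 2.59) (log2 difference -0.35, SE 0.15, limma adjusted p = 0.0535) and passed the test only in some refits. Gls2, the periportal glutaminase, fell (log2 difference -0.93, SE 0.17, limma adjusted p = 1.11e-05).

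Among the cytochromes P450 that handle foreign compounds 15 of 23 fell and none rose (median log2 difference -0.91). Cyp2d26 had 265 to 672 FPKM (median 447) against 496 to 959.6 FPKM (median 769) (log2 difference -0.77, SE 0.11, limma adjusted p = 2.17e-07). Cyp3a11, the main inducible CYP3A enzyme, had 11.2 to 772 FPKM (median 427) against 11.8 to 1019 FPKM (median 313) and its difference of 0.22 (SE 0.49) did not pass the test (limma adjusted p = 0.734). Of the major urinary protein genes, which encode pheromone carriers and are near-identical copies so that reads cannot be assigned to 1 gene with certainty, 7 of 18 fell, and only 2 did without the 3 livers above 5 FPKM. Their summed level was 17 to 56.3 FPKM in BXD9, BXD60, BXD101 on CD, BXD62 and BXD95, below all 30 low livers (179.6 to 3048), and 200.0 to 699 in the other 7. The same 5 livers and the B6D2F1 pair form the group low in Cyp2e1.

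Transcripts for both the burning and the making of fat were lower. Of the fatty acid oxidation genes 16 of 18 fell (median log2 difference -0.77), of the lipogenic genes 11 of 18 (-0.87) and of the cholesterol synthesis and uptake genes 5 of 21 (-0.26), and none rose in any of these lists. The cholesterol share is not far from the 15.7% of all genes tested that were lower, so that list is not set apart. After rescaling the lipogenic falls numbered 14 and the cholesterol falls 7, with flow cell as a covariate 8 and 2, and without the 3 livers above 5 FPKM 8 and 2. Of all 13414 genes tested, 3555, 1679 and 1410 were lower in the same fits. Acadvl, the first enzyme for very long chain fatty acids in mitochondria, had 74.1 to 237 FPKM (median 160.3) against 145 to 333 FPKM (median 245) (log2 difference -0.70, SE 0.11, limma adjusted p = 2.01e-06). Dgat2, which completes triglycerides, had 103 to 304 FPKM (median 155) against 184 to 444 FPKM (median 294) (log2 difference -0.90, SE 0.12, limma adjusted p = 1.09e-07), with 8 of 12 below all 30.

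The 12 largest falls among genes on the same side of the median of the 30 in at least 10 of the 12 were mostly enzymes. The largest was Hamp2 (hepcidin 2), with 12 to 2921 FPKM (median 51.7) against 59.1 to 15359 FPKM (median 501) (log2 difference -3.34, SE 0.79, limma adjusted p = 0.000471). Next were the sulfotransferase Sult3a1 (log2 difference -3.01), the omega-hydroxylase Cyp4a14 (-2.67), A1bg (-2.58), Mup3 (-2.58) and Cyp4a10 (-2.50). Sult2a8, a bile acid sulfotransferase, fell by 2.45 with 7 of 12 below all 30, and Ces1f, a carboxylesterase, had a difference of -2.13. Hao2, Car3, Acot3 and Acot1 had -2.05, -2.01, -1.98 and -1.96. Their limma adjusted p-values ran from 1.29e-06 for Sult2a8 to 0.00553 for A1bg. Hamp itself, the iron-regulating hormone hepcidin, was singled out after its values were seen. It was under 50 FPKM in 5 of the 12 high livers (4.01 to 35.7 FPKM), in 10 of the 26 between, in 1 of the 30 low and in 3 of the 72 younger, and in the other 7 high livers it was at least 983 FPKM. The 5 are both BXD101 livers, BXD62 and the B6D2F1 pair, so the split does not follow the order of Top2a.

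The 12 largest rises outside the cell cycle lists, by the same rule, were of 3 kinds. The replication-dependent histone genes Hist1h2ap and Hist1h2ao had log2 differences of 3.48 and 3.26. They are near-identical copies whose messages mostly lack a polyA tail, so these values are uncertain. Being tied to replication, these histone genes are, like the cell cycle lists, a description with no test. The loci AL589879.3 and AL589879.1, listed without a further name, had log2 differences of 3.56 and 3.38. Hist1h2ap stood at 329, 339.9 and 347 FPKM in the top 3 livers and at most 10.7 in the 30. Leukocyte and macrophage genes were Ly6a (log2 difference 3.43), Marco, Cd52 (3.07), S100a8, Prtn3 (2.99) and Cd74. Secreted proteins were Tff3 and Lcn2. Among the rises other than the histone genes the limma adjusted p-values ran from 2.51e-10 for Ly6a to 3.32e-05 for Tff3. Lcn2, the iron-siderophore-binding lipocalin of neutrophils and of inflamed hepatocytes, had 100.0 to 4499 FPKM (median 466) against 10.8 to 319.9 FPKM (median 64.8) (log2 difference 3.07, SE 0.47, limma adjusted p = 6.9e-07), highest in BXD60 at 4499 FPKM.

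Acute phase genes rose in 13 of 22 cases and fell in 2, Itih4 and Hamp (median log2 difference 0.80). Orm2, an acute phase glycoprotein, had 60.7 to 2265 FPKM (median 254) against 9.19 to 231 FPKM (median 30.4) (log2 difference 2.88, SE 0.42, limma adjusted p = 3.37e-07). Saa1, a serum amyloid, had 53 to 9708 FPKM (median 741) against 17.8 to 1651 FPKM (median 202) (log2 difference 1.70, SE 0.60, limma adjusted p = 0.0156), a call lost with flow cell as a covariate (limma adjusted p = 0.0537). BXD60 alone had 9708 FPKM of Saa1 and BXD95 only 53, so Top2a and serum amyloid were not ordered alike among the 12.

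Genes that restrain the cell cycle rose as well. Of 18 genes of arrest and p53 response 11 rose and Cdkn1c fell (median log2 difference 0.47). Cdkn1a, the inhibitor p21, had 8.16 to 68.8 FPKM (median 31.7) against 0.963 to 39.9 FPKM (median 6.43) (log2 difference 1.73, SE 0.34, limma adjusted p = 3.86e-05), highest in BXD60. Cdkn2a, the locus of p16 and ARF, had 0.536 to 49.3 FPKM (median 3.57) against 0.045 to 4.15 FPKM (median 1.02) (log2 difference 1.67, SE 0.32, limma adjusted p = 3.62e-05), and it reached 49.3 and 45.6 FPKM in the B6D2F1 pair and 28.6 in BXD101 on CD but at most 6.42 elsewhere. Of 15 D-type cyclin and growth factor genes 8 rose and Met, the receptor of hepatocyte growth factor, fell. Myc had 3.26 to 28.8 FPKM (median 8.99) against 0.693 to 7.81 FPKM (median 2.12) (log2 difference 1.59, SE 0.22, limma adjusted p = 7.43e-08), with BXD9, BXD62 and BXD95 highest. Ccnd1 (cyclin D1) had 9.08 to 55.4 FPKM (median 32.5) against 3.8 to 38.2 FPKM (median 15.5) (log2 difference 0.90, SE 0.24, limma adjusted p = 0.00176).

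Genes of matrix, bile ducts and liver tumours rose in particular livers. Of 14 stellate cell and matrix genes 11 rose (median log2 difference 0.83), and summed levels were 612 FPKM in BXD60 and 607 in BXD62, against 128 to 267 in the other 10 and 52.9 to 166 in the low livers. Col1a1 (collagen I) had 1.54 to 168 FPKM (median 13.4) against 0.365 to 6.23 FPKM (median 1.28) (log2 difference 2.65, SE 0.35, limma adjusted p = 3.7e-08). The same 2 livers led the cholangiocyte list, with sums of 214 and 146 FPKM against 14.2 to 35.4 in the 30, and Spp1 (osteopontin) at 180.0 and 85.1. In that list 7 of 8 rose. Krt19, the cytokeratin of bile ducts, had 0.653 to 6.08 FPKM (median 1.49) against 0.372 to 2.5 FPKM (median 0.952) (log2 difference 0.45, SE 0.15, limma adjusted p = 0.0116), a call lost with flow cell as a covariate (limma adjusted p = 0.0571). Of 14 endothelial genes 7 rose, among them Lyve1, at 124 and 128 FPKM in the B6D2F1 pair and at most 20.0 in the rest of the 12.

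In the list of oncofetal and liver tumour markers 14 of 18 rose and none fell (median log2 difference 0.75; after rescaling 13 rose and 1 fell, and without the collection session 11 rose and 1 fell), and 8 of 12 sums lay above all 30. H19, an imprinted RNA of fetal liver, had 2.25 to 183 FPKM (median 28.1) against 0.0578 to 64.5 FPKM (median 3.31) (log2 difference 2.46, SE 0.45, limma adjusted p = 1.68e-05), highest in BXD95 and BXD60. Tff3, a trefoil factor, had 0.168 to 428 FPKM (median 23.1) against 0 to 16.5 FPKM (median 0.462) (log2 difference 3.32, SE 0.64, limma adjusted p = 3.32e-05). It was 376 and 428 FPKM in the B6D2F1 pair, 164 in BXD95 and 142 in BXD101 on CD, but 0.168 to 2.42 in BXD9, BXD68, BXD89 and BXD102. Cd24a and Scd2 rose too (log2 difference 1.90, SE 0.22, limma adjusted p = 1.93e-09 for the first and log2 difference 1.53, SE 0.16, limma adjusted p = 4.82e-10 for the second). Afp (alpha-fetoprotein), the classical oncofetal marker, was not higher: it had 0.256 to 1.6 FPKM (median 0.725) against 0.46 to 2.3 FPKM (median 1.00) in the low livers (log2 difference -0.20, SE 0.09, limma adjusted p = 0.0659).

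Exocrine pancreas genes, markers of a neighbouring organ, differed between single libraries. They summed to 2354 FPKM in BXD101 on HF and 799.9 in BXD68 on HF, to 8.44 to 385 in the other 10 and to 7.19 to 1065 in the low livers. None of 14 genes passed the test. Without the libraries over 500 FPKM of these genes (6, of which 2 are high), 4846 genes were called higher and 1990 lower. Of 14 stress and unfolded protein response genes 5 rose, a share near the 36.1% of all genes tested, so this list is not set apart. Among the 5 was Asns (asparagine synthetase) at 0.131 to 10.5 FPKM (median 4.12) against 0.0206 to 0.367 FPKM (median 0.133). Asns is 1 of the 234 genes that reached the expression minimum only through the high libraries and is given without its p. Hmox1 (haem oxygenase) also rose, at 9.67 to 123 FPKM (median 52.3) against 4.18 to 49.6 FPKM (median 14.5) (log2 difference 1.78, SE 0.26, limma adjusted p = 3.2e-07).

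The 72 younger livers, which the ranking did not use, allowed a test of the cell cycle genes themselves. There each gene was fitted on log2(Top2a FPKM + 1) with diet and age as covariates, so a slope of 1 means that a gene rises by 1 log2 unit per log2 unit of Top2a. The range of Top2a is narrow in this set: 1 liver, BXD89 on CD at 193 days, had 2.62 FPKM and the next, BXD32 on CD at 200 days, 0.957. Slopes are therefore given with and without that liver. Of 13413 genes limma called 1914 rising (14.3%) and 542 falling (4.04%), and without that liver 1445 and 100. The older and younger sets share no library, but 3 close pairs join a low library to a younger one and 2 a between library to a younger one. With close pairs as 1 library 1792 genes rose and 491 fell.

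Mitotic genes rose with Top2a in the younger livers. Of 16 G2 and mitosis genes tested 13 rose, and 13 did without the BXD89 liver. Of 28 S phase genes 18 rose, and 13 without it. Aurkb, the kinase of the chromosomal passenger complex, had the smallest p (slope 0.93, SE 0.06, limma adjusted p = 8.45e-21), and its slope without the BXD89 liver was 0.84 (limma adjusted p = 4.41e-12). Mki67 (slope 0.76, SE 0.05, limma adjusted p = 1.92e-19) and Cdk1 (slope 0.88, SE 0.10, limma adjusted p = 4.39e-10) gave 0.61 and 0.90 without it (limma adjusted p = 8.84e-10 and 3.6e-06). Among the cell cycle genes named here, Aurka (slope 0.18, SE 0.10, limma adjusted p = 0.209), Pcna (slope 0.16, SE 0.09, limma adjusted p = 0.236), Ube2c (slope 0.38, SE 0.59, limma adjusted p = 0.694), Tk1 (slope -0.30, SE 0.25, limma adjusted p = 0.442) and Mcm10 (slope -0.32, SE 0.26, limma adjusted p = 0.419) did not pass the test. For Ube2c, Tk1 and Mcm10 none of the 12 older livers lay above all 30 either.

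Macrophage genes rose with Top2a in the younger livers too, in 17 of 20 cases with and 17 without the BXD89 liver. Mpeg1 had a slope of 1.81 (SE 0.21, limma adjusted p = 2.56e-10) and of 2.47 without it (limma adjusted p = 8.84e-10). Fewer granulocyte genes passed the test without that liver, which had 334 FPKM of S100a8 and 129 of Mpo where the BXD32 liver had 4.25 and 0.361. Of 10 precursor genes 9 rose with it and 6 without, and the slope of Mpo went from 2.70 to 1.02 (limma adjusted p = 0.0111 without it). Interferon genes went the other way: 5 of 29 rose with that liver and 25 without it. The slope of Oasl2 was 0.67 with it (SE 0.25, limma adjusted p = 0.0508) and 1.35 without (limma adjusted p = 0.00251). T and NK cell genes numbered 3 rises with and 8 without, acute phase genes 20 and 5.

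The falls of hepatocyte genes in the younger livers were mostly lost without the BXD89 liver. Of all 13413 genes tested 542 fell with Top2a (4.04%), and 100 did without that liver. Of the hepatocyte list 4 of 19 fell with Top2a in the younger livers and 1 did without the BXD89 liver, of the P450 list 8 of 23 and 0, and of the fatty acid oxidation list 7 of 18 and 0. Slc10a1, the bile acid transporter, had a slope of -0.14 (SE 0.14, limma adjusted p = 0.529). Cyp4a14 had -2.64 with and -1.44 without that liver (limma adjusted p = 0.000375 and 0.251), and it stood at 3.97 FPKM in it. Saa1 had 3.53 and 2.55 (limma adjusted p = 4.54e-05 and 0.0647), with 15648 FPKM in it. Cyp2c69 (slope -2.83, SE 0.53, limma adjusted p = 2.29e-05) and Cyp2c40 (slope -1.81, SE 0.32, limma adjusted p = 6.83e-06), cytochromes of arachidonic acid metabolism, kept their fall without it, with slopes of -3.17 and -1.39 (limma adjusted p = 0.00111 and 0.0247). Whether a slope in the younger and a difference in the older livers are unequal was not tested, since they are on different scales.

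Set side by side, 1709 of the 4844 genes higher in the 12 also rose with Top2a in the younger livers (35.3%), which is 89.3% of the 1914 rising ones. Among all genes tested 14.3% rose in the younger livers and 36.1% were higher in the 12. Of the 2106 lower genes 341 also fell (16.2%), or 62.9% of the 542 falling ones. The shares of all genes tested were 4.04% falling in the younger livers and 15.7% lower in the 12. Opposite directions were called in 7 genes higher in the 12 (0.145%) and in 6 lower ones (0.285%). All these overlaps use the fit with the younger BXD89 liver, without which 1445 genes rose and 100 fell. The overlap without that liver was not counted.

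**Figure D5:**
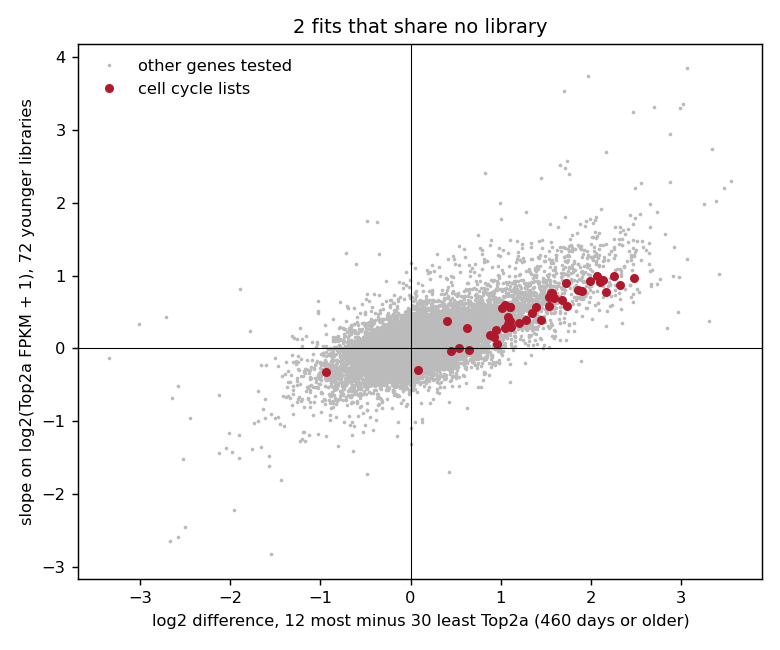
Each point is a gene: log2 difference between the 12 and the 30 older libraries (horizontal) against the slope on log2(Top2a FPKM + 1) in the 72 younger libraries (vertical), with the genes of both cell cycle lists in red. The red points lie mainly at the upper right, where Cdc20 has 2.48 and 0.97, and Mcm10 is the red point at the lower left with a difference of -0.94.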

How the data were processed

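The FPKM values are those the authors deposited, per transcript row. A deposited log2 table holds log2 of the FPKM table to within 0.0005 and was used only as an alternative. Alignment with STAR 2.6.0c to GRCm38 (mm10) is given per the submitters' processing notes, and how reads were counted is not given in the sources used here. Deposited mapping statistics gave counts of input reads and the percent uniquely mapped. For each of 25394 symbols in 43320 rows the row with the highest mean FPKM was used.

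Genes with a mean of at least 0.5 FPKM over the 140 kept libraries were tested on log2(FPKM + 1) with limma 3.58.1 in R 4.3.3 (trend and robust variances, Benjamini-Hochberg adjustment over all genes tested, threshold 0.05). The pseudocount understates the changes of genes with low FPKM. Limma was also run on simulated data with independent normal spread for each gene, the same in high and low libraries. For the 12 against 30 it called 94% of 100 genes changed by 1 log2 unit and 75% of 100 changed by 0.5. This setting leaves out unequal spread of the sets and the close pairs. Fits were repeated with each choice in turn changed, as the closing section states. Some strains have several libraries with different case identifiers, each library was entered as labelled, and p-values measure the spread between these libraries.

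1 FPKM on a transcript of 1 kb stands for 18.5 to 24.1 reads in the high and 16.7 to 27.6 in the low libraries, so a level near 0.1 FPKM rests on few reads. The members and the gene lists were chosen with earlier results of these data known. Genes were named by rule: the 12 largest rises and falls with a mean of at least 1 FPKM that lay on 1 side of the median of the 30 in at least 10 of the 12, the 2 smallest p of each list, the 6 steepest slopes each way and a set of markers. Exceptions are marked as chosen after their values were seen. Chromosome positions are on GRCm38, and promoters come from RefSeq.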

Additional observations from a re-analysis of the deposited data

How the results depend on the processing

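Leaving out each high library in turn gave 4398 to 4936 genes higher and 1884 to 2175 lower. A minimum of 5 FPKM left 1983 higher genes in the older livers and 479 rising genes in the younger ones, and no minimum gave 2961 rising, since fewer or more genes were tested. Rescaling by a median of ratios gave 3555 lower and 1434 falling genes. Falling genes in the younger livers numbered 304 with diet as the only covariate, 198 with sample weights, 286 without libraries of 291 days or older and 100 without the liver with the most Top2a, and the cause was not tested. Fitting the flow cell with 7 high and 6 low libraries alone left 1331 higher and 635 lower genes with 10 residual degrees of freedom. The log2 difference of Tk1 changed sign to -0.081 after rescaling, -0.054 with sample weights, -0.018 with the length slope as a covariate and -0.035 without the 3 highest livers, from 0.083, and passed the test in none of these fits. Of 148 named gene results 75 were unchanged in direction and call under every alternative run on them. The fits with flow cell, close pairs, session or pancreas and without the top livers were chosen after seeing the data. No paired analysis was run, since the labels name no pairs and only B6D2F1 and BXD62 are labelled in both sets. Of the 34 G2 and mitosis genes 18 were not tested because their mean was under 0.5 FPKM, and whether depth limits any call was not tested.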

Other observations

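The following 4 genes are among those in which high and low livers were fully separated. They were picked after their values were seen, no list of their pathways was tallied, and they are given as values with no test. Phgdh and Psat1 are among the 234 genes that reached the expression minimum only through the high libraries. Phgdh, which starts serine synthesis from glycolysis, had 0.851 to 28.6 FPKM (median 3.61) in the 12 and 0.0653 to 0.851 (median 0.273) in the 30. Psat1, the next enzyme, had 0.703 to 16 (median 5.4) and 0.0539 to 0.565 (median 0.206). Mthfd2, the mitochondrial folate enzyme of growing cells, had 1.07 to 9.13 (median 4.36) and 0.108 to 0.495 (median 0.266). Slc1a5, a glutamine transporter, had 3.18 to 25.1 (median 4.64) and 0.639 to 3.15 (median 1.43). In all 4 genes the lowest of the 12 was above the highest of the 30, in Phgdh by less than the rounding shown.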
